A study of Mus musculus with 21 samples.

Results

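Fatty acid oxidation genes and targets of the nuclear receptor PPAR alpha were examined in mouse livers before and after removal of part of the liver. The set comprised 34 genes, named by gene symbol, of the 12393 genes that the array measured with a probe set of 1 gene. For 33 of the 34 such a probe set existed, and where a gene had several, the one with the highest mean signal was used. Cyp4a10 was represented by a probe set that it shares with another gene, and it was not analysed. Of the 33 genes, 32 passed the filter on low signal (log2 signal above 4 on at least 3 arrays) and were tested. The exception was Acot2, a mitochondrial acyl-CoA thioesterase, which lay between 2.4 and 3.39 on every array.

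The 12 KO samples came from male, 9-month-old Mdr2-/- mice of strain FVB129P2. These mice lack the canalicular phospholipid transporter encoded by Abcb4, a known cause of chronic bile duct inflammation, fibrosis and later liver tumours in mice. The 9 control samples came from male, 9-month-old mice labelled FVB129P2/FVBNJ, so genotype and strain cannot be told apart. All mice, controls included, underwent 30% partial hepatectomy (PHx), and the lobe removed at surgery served as day 0. KO livers were sampled on day 0 (n = 6), day 2 (n = 3) and day 6 (n = 3), and control livers on day 0, day 2 and day 6 (n = 3 each). The replicates within a group were separate mice, while 9 mice gave both a day 0 and a later sample. No unoperated or sham-operated mice were used here, so the lobe removed at surgery is the only baseline.

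Each of the 21 arrays gave 1 GCRMA log2 signal per probe set. Signals ran from 1.33 to 15.54, with array medians between 3.8 and 4.1, and the number of arrays, not read depth, limits the precision. Abcb4 lay between 7.25 and 8.96 on all KO arrays, against 9.23 to 10.33 on all control arrays, and it was lower in KO livers on days 0, 2 and 6 (by 1.58, 1.99 and 2.41 on the log2 scale). The 3′ probe set of Gapdh exceeded its 5′ probe set by 9.5 log2 units on the array of control mouse 265 on day 2, by 2.03 on that of KO mouse 337 on day 0 and by 1.58 on that of control mouse 263 on day 2. It did so by at most 0.94 on the other arrays. A large difference of this kind is a usual sign of degraded or incompletely copied RNA. Each member's call that rests on day 2 control livers is therefore given with and without these 3 arrays. Without them the only control liver of day 2 is that of mouse 264, so such values rest on that mouse alone.

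Hepatocytes burn fatty acids chiefly in mitochondria, which long-chain acyl groups enter through the carnitine shuttle. Very long chains are first shortened in peroxisomes, and a side route in the endoplasmic reticulum oxidises the far, omega, end of the chain. PPAR alpha is a nuclear receptor that binds fatty acids and, in fasting, switches on genes of all 3 routes together with ketone body production. Liver regrowth after resection in mice is accompanied by a transient accumulation of fat in the remnant.

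In bulk tissue, fewer cells of a type and less RNA per cell cannot be told apart. The 9 hepatocyte marker genes tested (Alb, Apoa1 and others) included 0 past the threshold between KO and control livers on any day by limma's moderated test with Benjamini-Hochberg adjustment over all 7320 genes tested. Their mean log2 signal per array was 13.84 to 13.99 in KO livers and 13.72 to 13.99 in control livers on day 0. On day 2 it was 13.97 to 14.03 in KO livers and 13.75 to 13.84 in control livers, so all 3 KO arrays were above all 3 control arrays. Of 4 endothelial markers 0 were called, and on day 2 their mean was 3.36 to 3.92 in KO livers and 4.03 to 4.58 in control livers, again without overlap. These means lie close to background, with 1 or 2 of the 4 markers above log2 4 on each of these arrays. Markers of stellate cells and myofibroblasts, the matrix-producing cells of fibrosis, were higher in KO livers for 6 of 7 tested on day 0, 3 on day 2 and 1 on day 6. Their mean per array was 7.04 to 8.71 in KO livers and 4.90 to 5.13 in control livers on day 0, and on day 2 it was 6.97 to 8.62 in KO livers and 5.60 to 6.54 in control livers. Of 4 cholangiocyte markers tested, 2 were higher in KO livers on each day. Of 7 macrophage markers 1 was higher and 1 lower in KO livers on day 0, while 1 was lower on day 2 and 2 were lower on day 6. These marker calls are given with all arrays only, those of high Gapdh difference included. The part of these cell markers in the differences below was not tested.

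**Figure D1:**
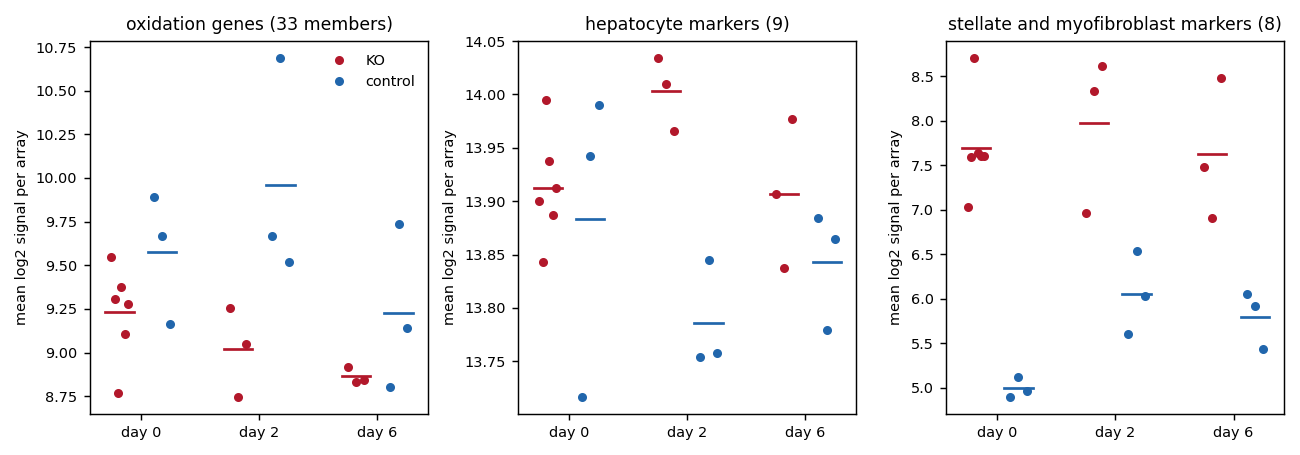
Mean log2 signal per array (points) and group mean (bars) for 33 members, 9 hepatocyte markers and 8 stellate and myofibroblast markers, in KO and control livers on days 0, 2 and 6. The y axes differ between panels: hepatocyte markers stay within 13.72 to 14.04, whereas the stellate markers of all KO arrays lie above those of all control arrays.

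KO livers on day 0 differed from control livers in few of these genes. Of the 32 tested, 3 were lower (Acot3, Cpt2 and Eci2) and 1 was higher (Pdk4). Over all genes tested, 2.87% were lower and 6.79% were higher in the same comparison. The difference was negative in 27 of the 32 members, while 51.7% of all genes had a positive difference. In 5 members all 6 KO arrays lay below all 3 control arrays (Cpt2, Acadvl, Acads, Eci2 and Ehhadh), where 8.16% of all genes did so. The median log2 difference, KO minus control, was -0.46 over the members and 0.02 over all genes, and 9 of 32 members had an unadjusted p under 0.05. The share of all genes under that unadjusted p was not counted, here or in the comparisons below, so such counts lack a background. The count of 4 calls was 2 without KO mouse 254, 258 or 332 or control mouse 263 on day 0, 1 without control mouse 265 on day 0 and 7 without control mouse 265 on day 2, which enters through the shared estimate of spread.

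Acot3 encodes a peroxisomal acyl-CoA thioesterase, which releases free fatty acids from CoA. Its log2 signal on day 0 was 5.26, 3.61, 3.34, 3.20, 3.20 and 3.58 in KO livers, against 9.53, 7.44 and 5.24 in control livers. The highest KO array (mouse 250) just passed the lowest control array (mouse 303), so the groups overlapped by that pair alone. The other 5 KO arrays were under 4, near the arrays' medians. The mean difference was -3.71 ± 0.71 (SE; limma adjusted p = 0.00193), and the difference was past the threshold whichever array was left out (-4.79 to -2.64).

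Pdk4 encodes the kinase that shuts off pyruvate dehydrogenase, which spares glucose while fat is burnt, and it ran the opposite way. Its log2 signal was 6.69, 6.75, 7.14, 8.41, 7.29 and 7.33 in KO livers and 5.79, 3.78 and 3.99 in control livers on day 0. All KO arrays were above all control arrays, and among controls mouse 263 was the highest. The difference was 2.75 ± 0.71 (SE; limma adjusted p = 0.0197), with 2 of the 3 control values under log2 4. With these set to 4 the mean of KO livers was 6.37-fold higher, a bound that covers the floor and not the spread between mice. It missed the threshold without control mouse 265 on day 0 (adjusted p = 0.120) or without control mouse 303 on day 0 (0.107).

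Vnn1, which encodes pantetheinase, an enzyme of CoA breakdown and a sensitive PPAR alpha target, was placed like Pdk4. Its log2 signal was 7.46, 7.59, 7.22, 6.64, 7.38 and 8.24 in KO livers and 5.24, 4.02 and 4.01 in control livers on day 0. Every KO array was above every control array. The difference of 3.00 ± 1.07 (SE) nevertheless missed the threshold in the shared fit (limma adjusted p = 0.0876), to which the control arrays of day 2 (SD 3.19) and day 6 (SD 2.79) contribute their spread. In a fit of the day 0 arrays alone the adjusted p was 0.0005, and it was 0.0402 without the 3 arrays of high Gapdh difference. Leaving out control mouse 263 or 265 on day 2 or control mouse 392 on day 6 also brought it under the threshold (0.0255, 0.0422 and 0.0360). Pdk4 and Vnn1 were the only 2 members whose KO arrays all lay above the control arrays on day 0, where 11.6% of all genes did so.

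The 2 smaller called differences were those of Cpt2 and Eci2. Cpt2, which turns acylcarnitine back into acyl-CoA inside the mitochondrion, averaged 9.87 ± 0.362 in KO livers (SD, n = 6) and 10.61 ± 0.22 in control livers (SD, n = 3). The difference was -0.73 ± 0.22 (SE; limma adjusted p = 0.0405). Eci2, an enoyl-CoA isomerase needed for unsaturated chains, averaged 10.69 ± 0.226 in KO livers (SD, n = 6) and 11.42 ± 0.374 in control livers (SD, n = 3), a difference of -0.73 ± 0.22 (SE; limma adjusted p = 0.0472). Both calls are fragile. Cpt2 missed the threshold without any 1 of KO mice 254, 258 and 332 or control mice 263, 265 and 303 on day 0, with adjusted p up to 0.200. With the mean of its 2 probe sets the difference was -0.50 (limma adjusted p = 0.0593). Eci2 missed it on leaving out any of 13 of the 21 arrays, among them every KO array of day 0 and control mice 263 and 265 of day 0, with adjusted p up to 0.243.

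The receptor itself and its liver-enriched partner factor CREB3L3, which drives fasting genes jointly with PPAR alpha, did not pass the threshold. Ppara averaged 10.66 ± 0.791 in KO livers (SD, n = 6) and 11.84 ± 0.451 in control livers (SD, n = 3) on day 0, with a difference of -1.18 ± 0.87 (SE; limma adjusted p = 0.479). Creb3l3 differed by -0.62 ± 0.20 (SE; limma adjusted p = 0.0573), and it passed without the 3 arrays of high Gapdh difference (adjusted p = 0.0394), or without control mouse 303 on day 0 or control mouse 263 or 265 on day 2 (0.0347 to 0.0432). Slc25a20, the carnitine-acylcarnitine carrier of the inner mitochondrial membrane, differed by -0.58 ± 0.19 (SE; limma adjusted p = 0.0587) and passed in the same way (0.0357), or without KO mouse 337 on day 0, KO mouse 254 on day 2 or either array of control mouse 303 (0.0301 to 0.0489).

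**Figure D2:**
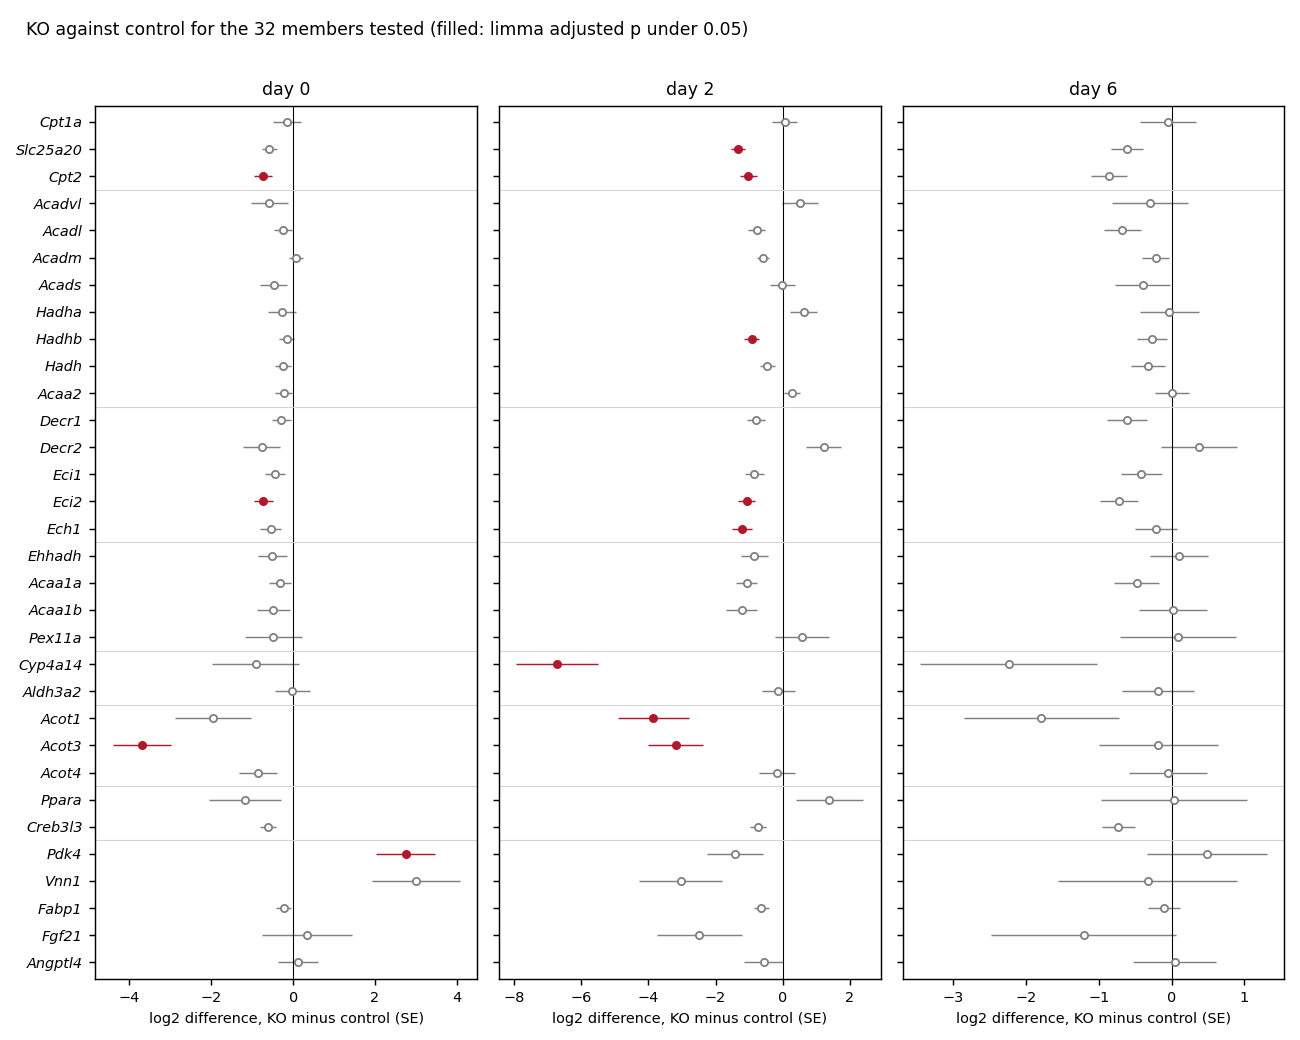
Log2 difference, KO minus control (points, with SE bars), for the 32 members tested on days 0, 2 and 6, grouped by role, where filled red points passed an adjusted p of 0.05. Filled points number 4 on day 0, 8 on day 2, all to the left of 0, and 0 on day 6.

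On day 2 after resection KO livers had lower signals than control livers in 8 of the 32 members and higher signals in 0, against 2.96% lower and 2.75% higher over all genes tested. In 16 members all 3 KO arrays were below all 3 control arrays, where 11.9% of all genes were so arranged. The median log2 difference was -0.79 over the members and -0.03 over all genes. An unadjusted p under 0.05 was found in 19 of 32 members, again without a count over all genes. The difference was negative in 25 of the 32 members, while 47.0% of all genes had a positive difference. The 8 genes were Slc25a20, Cpt2, Hadhb, Eci2, Ech1, Cyp4a14, Acot1 and Acot3. The other 8 members without overlap were Acadl, Acadm, Decr1, Eci1, Acaa1a, Acaa1b, Creb3l3 and Fabp1.

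The count of 8 depends on the arrays of this day. Without KO mouse 254 on day 2 it was 2, without KO mouse 258 on day 2 it was 4, and without control mouse 265 on day 2 it was 2. Leaving out the 3 arrays of high Gapdh difference leaves 1 control liver on day 2, that of mouse 264. It is assumed to vary like the other groups. Mouse 264 had the highest signal of the day 2 control livers in 20 of 32 members. The members' median difference was then -1.08, and whether RNA quality or the choice of this mouse moved it was not tested. In a fit of the day 2 arrays alone the count was 0.

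Cyp4a14, a cytochrome P450 that starts omega-oxidation and one of the most inducible PPAR alpha targets of mouse liver, had the largest difference. Its log2 signal on day 2 was 4.56, 2.67 and 2.79 in KO livers and 9.61, 12.19 and 8.33 in control livers. The 2 groups were far apart, and 2 of 3 KO arrays were at the level of KO livers on day 0 (2.49 to 3.00). The mean difference was -6.70 ± 1.22 (SE; limma adjusted p = 0.00554). Because 2 KO values were under log2 4, a bound was taken with these set to 4. By it the group mean was 57.9-fold lower in KO livers, which covers the floor and not the spread between mice. The gene passed the filter through 7 arrays, 3 of them the control livers of day 2. It passed the threshold whichever single array was left out (-7.56 to -5.63, adjusted p up to 0.0396) and without the 3 arrays of high Gapdh difference (-8.85, adjusted p = 0.0325), and in the fit of day 2 arrays alone its adjusted p was 0.0718.

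Acot1, a cytosolic acyl-CoA thioesterase, had log2 signals of 5.69, 4.51 and 6.68 in KO livers and 7.37, 11.00 and 10.05 in control livers on day 2. All KO arrays were lower, although control mouse 263 came within 1 log2 unit of KO mouse 258. The difference was -3.85 ± 1.06 (SE; limma adjusted p = 0.0398). It missed the threshold without KO mouse 250, 254 or 258 or control mouse 264 or 265 on day 2, with adjusted p up to 0.163, and without the 3 arrays of high Gapdh difference (-5.37, adjusted p = 0.115). Acot3 had signals of 4.76, 3.20 and 3.20 in KO livers and 5.59, 8.33 and 6.77 in control livers, so the groups did not overlap. Its difference was -3.18 ± 0.82 (SE; limma adjusted p = 0.0312), lost without KO mouse 254 or 258 or control mouse 264 or 265 on day 2, with adjusted p up to 0.128, and without the 3 arrays (-4.61, adjusted p = 0.0999). Acot4, a peroxisomal thioesterase, did not pass, with a mean of 5.11 ± 0.631 in KO livers and 5.27 ± 1.42 in control livers (SD, n = 3 each), a difference of -0.16 (limma adjusted p = 0.887). Without the 3 arrays the difference of Acot4 was -1.71 (adjusted p = 0.244).

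The 4 thioesterase genes lie side by side on chromosome 12 (GRCm38.p6), in the order Acot2, Acot1, Acot4 and Acot3. Acot1 lies at chr12:84009502-84017670, Acot4 at chr12:84037254-84044723 and Acot3 at chr12:84052144-84060400, with gaps of 15.6 kb between Acot2 and Acot1, 19.6 kb between Acot1 and Acot4 and 7.4 kb between Acot4 and Acot3. The gene products are similar in sequence, and cross-hybridisation between their probe sets was not tested. Cyp4a14, at chr4:115486200-115496158, has Cyp4a10 as a neighbour at a distance of 22.1 kb, and cross-hybridisation within that family was not tested either.

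Of the 3 genes of the carnitine shuttle, 2 were lower in KO livers on day 2. Slc25a20 lay at 9.78 to 10.40 in KO livers and at 11.29 to 11.69 in control livers. The difference was -1.33 ± 0.22 (SE; limma adjusted p = 0.0025), it passed the threshold whichever single array was left out (-1.46 to -1.15), and it missed it without the 3 arrays of high Gapdh difference (-1.13, adjusted p = 0.115). A dimmer probe set of Slc25a20 differed by -0.45 (limma adjusted p = 0.313), so the 2 probe sets disagree on the call. Cpt2 lay at 9.04 to 9.86 in KO livers and at 10.46 to 10.60 in control livers, with a difference of -1.02 ± 0.25 (SE; limma adjusted p = 0.0265). It missed the threshold without KO mouse 254 or 258 or control mouse 263 or 265 on day 2, with adjusted p up to 0.140, and without the 3 arrays (-0.93, adjusted p = 0.363). Cpt1a, the outer-membrane enzyme that admits acyl groups to the shuttle and is held to be its rate-setting step, averaged 10.24 ± 0.0404 in KO livers and 10.19 ± 1.04 in control livers (SD, n = 3 each; limma adjusted p = 0.951), with the lowest control array, 8.99, that of mouse 265.

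In the mitochondrial spiral itself, 1 of 8 genes was lower on day 2. Hadhb, the thiolase subunit of the trifunctional protein, lay at 10.73 to 11.11 in KO livers and at 11.70 to 11.98 in control livers. The difference was -0.93 ± 0.21 (SE; limma adjusted p = 0.0178), and it missed the threshold without KO mouse 250 or 254 or control mouse 265 on day 2, with adjusted p up to 0.0820, and without the 3 arrays of high Gapdh difference (-0.87, adjusted p = 0.235). A second probe set of Hadhb differed by -0.52 (limma adjusted p = 0.207). Hadha, the partner subunit, averaged 9.95 ± 0.231 in KO livers and 9.33 ± 1.24 in control livers (SD, n = 3 each), a difference of 0.62 ± 0.40 (SE; limma adjusted p = 0.358). The difference of Hadha was positive whichever single array was left out (0.14 to 1.32), and it passed at 1.32 without control mouse 264 on day 2 (adjusted p = 0.00409). Without the 3 arrays together it was -0.79 (adjusted p = 0.375). The chain-length-specific acyl-CoA dehydrogenases, which start each turn, did not pass, and their differences were -0.59 ± 0.19 for Acadm, -0.78 ± 0.26 for Acadl, 0.51 ± 0.52 for Acadvl and -0.01 ± 0.38 for Acads (SE; limma adjusted p from 0.0682 to 0.987). Acadm passed without control mouse 303 on day 6 (0.0283) and Acadl without control mouse 263 on day 2 (0.0328), while Acadvl was at -0.52 without control mouse 265 on day 2.

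Among the 5 auxiliary enzymes for unsaturated chains, 2 were lower in KO livers on day 2. Eci2 lay at 10.33 to 11.23 in KO livers and at 11.50 to 12.11 in control livers, with a difference of -1.08 ± 0.26 (SE; limma adjusted p = 0.0243). Without KO mouse 254 or control mouse 265 on day 2 it missed the threshold (adjusted p = 0.132 and 0.0668), and so it did without the 3 arrays of high Gapdh difference (-1.29, adjusted p = 0.153). Ech1, a dienoyl-CoA isomerase, lay at 10.22 to 11.12 in KO livers and at 11.62 to 12.23 in control livers, with a difference of -1.22 ± 0.29 (SE; limma adjusted p = 0.0242). It was lost without KO mouse 254 or 258 or control mouse 265 on day 2, with adjusted p up to 0.128, and without the 3 arrays (-1.50, adjusted p = 0.148). Decr1, the mitochondrial dienoyl-CoA reductase, differed by -0.81 ± 0.27 (SE; limma adjusted p = 0.0838) on its brighter probe set and by -1.92 (limma adjusted p = 0.0152) on a dimmer one. Eci1, the mitochondrial enoyl-CoA isomerase, differed by -0.84 ± 0.28 (SE; limma adjusted p = 0.0801). Decr2, the peroxisomal dienoyl-CoA reductase, had the opposite sign, at 8.18 ± 0.442 in KO livers and 6.97 ± 1.33 in control livers (SD, n = 3 each). Its difference of 1.21 ± 0.52 (SE) did not pass (limma adjusted p = 0.162), it passed without control mouse 264 on day 2 (1.77, adjusted p = 0.0300), and it was 0.10 (adjusted p = 0.989) without the 3 arrays.

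The 4 peroxisomal genes gave 0 calls on day 2. Acaa1a, a peroxisomal thiolase, came nearest at -1.07 ± 0.31 (SE; limma adjusted p = 0.0507). It passed on leaving out KO mouse 312 or 337 or control mouse 263 on day 0, control mouse 264 on day 2 or control mouse 393 on day 6 (0.0103 to 0.0498), and it was -0.48 (0.775) without the 3 arrays of high Gapdh difference. Its near relative Acaa1b differed by -1.22 ± 0.47 (SE; limma adjusted p = 0.121), and by the same with an adjusted p of 0.0219 without KO mouse 258 on day 0. Ehhadh, the peroxisomal bifunctional enzyme, lay at 9.57 to 9.67 in KO livers and at 9.41 to 11.70 in control livers, so the control arrays spanned the KO arrays. It did not pass in the fit of all arrays, but did without control mouse 263 on day 2 (-1.37, adjusted p = 0.0398). Without the 3 arrays of high Gapdh difference the difference of Ehhadh was -2.09, taken against control mouse 264 alone, the highest control array at 11.70. Pex11a, a peroxisome division factor, ranged from 6.08 to 11.22 in control livers, with the lowest value on the array of mouse 265, and its difference of 0.58 was -0.88 without that array. Ppara behaved alike, at 10.20 to 11.41 in KO livers and 5.39 to 11.42 in control livers, with mouse 265 again the lowest (1.39 ± 1.01, SE; limma adjusted p = 0.417). Without that array the difference of Ppara was -0.53.

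**Figure D3:**
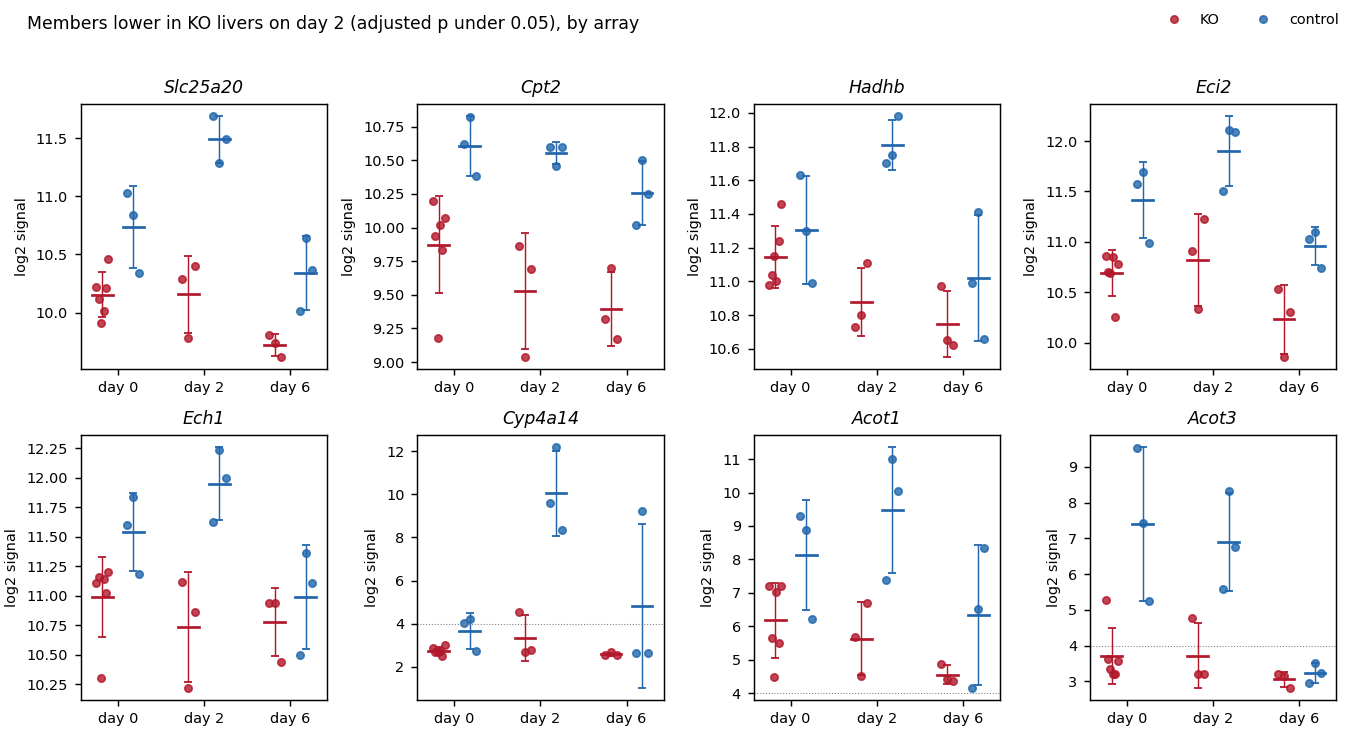
Log2 signal of each array (points), with group mean and SD (bars), for the 8 members called lower on day 2, in KO (left of each pair) and control livers on days 0, 2 and 6; the dotted line marks log2 4 where an axis reaches it. KO and control arrays do not overlap on day 2 in any of the 8 genes, and Cyp4a14 of control livers stands at 8.33 to 12.19 on day 2.

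On day 6 limma called 0 of 32 members in either direction, with 6 at an unadjusted p under 0.05, while 0.492% of all genes were lower and 1.24% higher. All KO arrays lay below all control arrays in 6 members (Slc25a20, Cpt2, Acadvl, Acadl, Eci2 and Creb3l3), where 10.8% of all genes did so. The median difference was -0.25 over the members and -0.03 over all genes. Cpt2 averaged 9.40 ± 0.273 in KO livers and 10.26 ± 0.24 in control livers (SD, n = 3 each), a difference of -0.86 ± 0.25 (SE; limma adjusted p = 0.109). Without KO mouse 258 on day 0, an array that enters through the shared estimate of spread, it passed (adjusted p = 0.0458). Cpt2 and Eci2 were the only 2 members whose KO arrays were all lower on days 0, 2 and 6. The share of all genes so placed on each of these days together was not counted.

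The change after resection was next followed within each genotype. In control livers on day 2, compared with control livers on day 0, 4 of 32 members were higher and 1 was lower, against 5.23% higher and 4.28% lower over all genes. The 4 were Cyp4a14, Vnn1, Pdk4 and Slc25a20, and the 1 was Decr2. The median difference was 0.07 over the members and 0.08 over all genes, and 11 of 32 members had an unadjusted p under 0.05. In KO livers on day 2, compared with KO livers on day 0, limma called 0 of 32 members and 0% of all genes in each direction, and 3 members had an unadjusted p under 0.05.

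Cyp4a14 in control livers had log2 signals of 9.61, 12.19 and 8.33 on day 2, against 4.05, 4.21 and 2.71 on day 0. All day 2 arrays were above all day 0 arrays, by 6.39 ± 1.22 (SE; limma adjusted p = 0.00561), and no single array decided the call. With the day 0 value under log2 4 set to 4, the group mean was 62.1-fold higher on day 2, again a bound for the floor alone. Without the 3 arrays of high Gapdh difference the difference was 8.53 (adjusted p = 0.0341). On day 6 the values were 2.64, 9.21 and 2.62, so mouse 392 was at the level of the day 2 livers while the other 2 mice were near background. In KO livers the signal was at most 3.00 on day 0, 4.56 on day 2 and 2.66 on day 6.

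Vnn1 in control livers had log2 signals of 6.93, 11.06 and 13.21 on day 2, against 5.24, 4.02 and 4.01 on day 0. All day 2 arrays were higher, and mouse 263 was far below the other 2 mice on day 2. The difference was 5.98 ± 1.23 (SE; limma adjusted p = 0.00862), and without control mouse 265 on day 2 the adjusted p was 0.0510, while without the 3 arrays of high Gapdh difference Vnn1 still passed (6.64, adjusted p = 0.0348). Pdk4 in control livers had signals of 5.91, 8.85 and 9.73 on day 2, against 5.79, 3.78 and 3.99 on day 0. Mouse 263 differed by 0.12 between its own 2 samples, whereas mouse 265 differed by 5.95. The difference of the group means was 3.64 ± 0.83 (SE; limma adjusted p = 0.0137), lost without control mouse 265 or 303 on day 0 or control mouse 265 on day 2, with adjusted p up to 0.0695, and still past the threshold without the 3 arrays (4.33, adjusted p = 0.0475).

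The 2 other calls in control livers were weaker in one way or another. Slc25a20 averaged 11.49 ± 0.2 on day 2 and 10.74 ± 0.356 on day 0 (SD, n = 3 each), a difference of 0.75 ± 0.22 (SE; limma adjusted p = 0.0366). It was lost without control mouse 265 or 303 on day 0 or control mouse 263 or 265 on day 2, with adjusted p up to 0.171, and without the 3 arrays of high Gapdh difference (0.55, adjusted p = 0.415), and its dimmer probe set differed by -0.03. Decr2 averaged 6.97 ± 1.33 on day 2 and 9.13 ± 0.216 on day 0 (SD, n = 3 each), a difference of -2.16 ± 0.52 (SE; limma adjusted p = 0.0184). Its lowest day 2 value, 5.50, came from mouse 265, the array of largest Gapdh difference. Without that array the difference was -1.43 (adjusted p = 0.0866), and the call was also lost without control mouse 265 or 303 on day 0 or without the 3 arrays (-1.05, adjusted p = 0.408).

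The count of 5 calls in control livers moved with single arrays. It was 2 without control mouse 265 or without control mouse 303 on day 0, 12 without control mouse 264 on day 2 and 1 without control mouse 265 on day 2. Without the 3 arrays of high Gapdh difference 3 of the 5 remained, and in a fit of the 2 groups alone 0 did.

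The difference between the responses of KO and control livers was tested as an interaction. For day 2 it was past the threshold in 0 of 32 members and 0% of all genes in each direction, with 7 members at an unadjusted p under 0.05. The largest 3 were Vnn1 (-6.03 ± 1.63, adjusted p = 0.140), Cyp4a14 (-5.78 ± 1.61, adjusted p = 0.151) and Pdk4 (-4.17 ± 1.09, adjusted p = 0.129), each given as KO minus control with SE by limma. So the calls in control livers, and their absence in KO livers, are not shown to differ between genotypes at this number of arrays. Cyp4a14 passed without control mouse 392 on day 6 (adjusted p = 0.0134), and Vnn1 and Pdk4 passed without control mouse 263 on day 2 (both 0.0129). Without control mouse 264 on day 2 the calls were Decr2 and Hadha instead, both with a positive interaction.

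**Figure D4:**
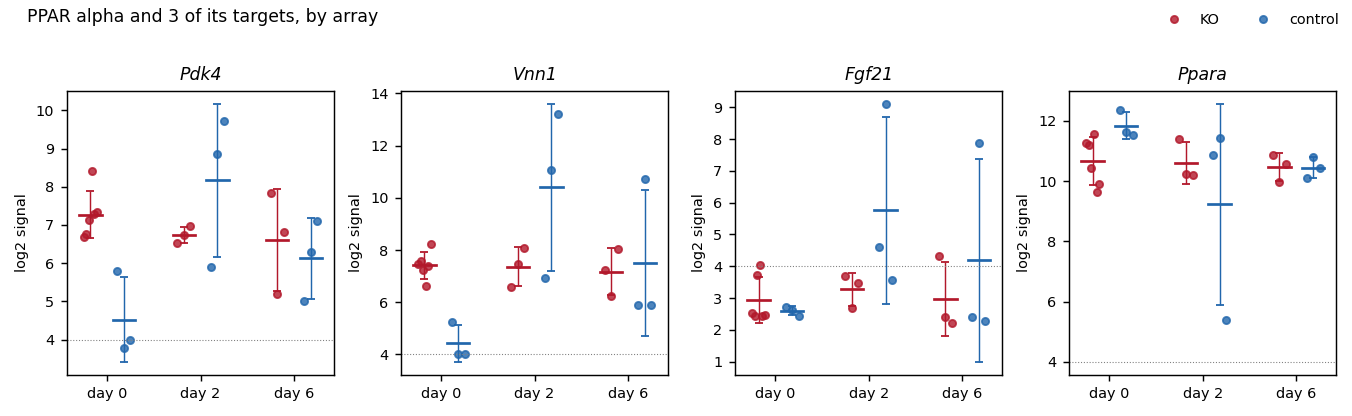
Log2 signal of each array (points), with group mean and SD (bars), of Pdk4, Vnn1, Fgf21 and Ppara in KO (left of each pair) and control livers on days 0, 2 and 6. On day 0 the KO arrays of Pdk4 and Vnn1 all lie above the control arrays, and on day 2 the control arrays spread widely, with Ppara at 5.39 on the array of mouse 265.

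By day 6 control livers had 1 of 32 members lower than on day 0 and 0 higher, against 0.738% lower and 2.12% higher over all genes. That member was Acot3, with log2 signals of 2.96, 3.52 and 3.24 on day 6 and 9.53, 7.44 and 5.24 on day 0 in control livers. All day 6 arrays were under 4, at the level of KO livers, so the difference of -4.16 ± 0.82 (SE; limma adjusted p = 0.0103) ends in the background range. Without control mouse 265 on day 0 its adjusted p was 0.0520, and without KO mouse 258 on day 0 or control mouse 264 on day 2 the count was 2. KO livers on day 6 had 0 of 32 members past the threshold relative to day 0, with 5 at an unadjusted p under 0.05, where 0.137% of all genes were higher and 0% lower. The day 6 interaction was past the threshold in 0 of 32 members, with 1 at an unadjusted p under 0.05, and in 0.0137% of all genes upward and 0.15% downward. For Acot3 it was 3.52 ± 1.08 (SE; limma adjusted p = 0.409).

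The 9 mice sampled both at surgery and later allowed a view within single animals. KO mice 250, 254 and 258 and control mice 263 and 265 gave their later sample on day 2. KO mice 312, 332 and 337 and control mouse 303 gave theirs on day 6. The counts pool both genotypes and both days. In 3 of 32 members (9.38%) the later sample was lower in 9 of 9 mice, and over all genes tested this held for 1.23%. No member was higher in 9 of 9, against 1.19% of all genes. Acaa1b, one of the brightest members, was lower by a median of 1.35 on the log2 scale (changes of -2.06 to -0.13). Aldh3a2, the fatty aldehyde dehydrogenase that completes omega-oxidation, was lower by a median of 1.18 (-2.75 to -0.44). Acot3 was the third, with a median of -0.50 (-3.94 to -0.01), but in 5 of the 9 mice both of its values were under log2 4, so its direction there is one between background values. In the group fits neither Acaa1b nor Aldh3a2 passed the threshold. Acaa1b in KO livers averaged 12.30 ± 0.257 on day 2 (SD, n = 3) and 13.92 ± 0.907 on day 0 (SD, n = 6), a difference of -1.62 ± 0.40 (SE; limma adjusted p = 0.449). Without KO mouse 258 on day 0, whose value of 12.13 stood apart from the other 5 (13.81 to 14.49), it passed at -1.98 (adjusted p = 0.000754).

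Some members varied widely between mice of the same group. Fgf21 encodes a fasting hormone of the liver, and its log2 signal in control livers was 4.61, 9.10 and 3.56 on day 2 and 2.41, 7.88 and 2.28 on day 6. Mouse 264 on day 2 and mouse 392 on day 6 were thus high, and the other 4 were at or close to background, as KO livers were throughout (2.23 to 4.32). Mouse 392 was also the high one of its group for Cyp4a14 (9.21) and Vnn1 (10.73). Mouse 264 had the highest signal of its group in 20 of 32 members. The rest of that group, mice 263 and 265, had arrays of high Gapdh difference, and the part of RNA quality in this rank was not tested. At the low end, control mouse 303 was lowest of its day 0 group in 25 of 32 members, KO mouse 258 of its day 0 group in 18 and KO mouse 254 of its day 2 group in 21. Angptl4, a secreted inhibitor of lipoprotein lipase and a PPAR alpha target, showed no called difference and ranged from 8.45 to 10.95 over all arrays. Fabp1, the liver fatty acid binding protein, had the highest signals of the set, at 14.16 to 15.54, and its day 2 difference was -0.64 ± 0.22 (SE; limma adjusted p = 0.0871, or 0.0455 without KO mouse 258 on day 0).

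**Figure D5:**
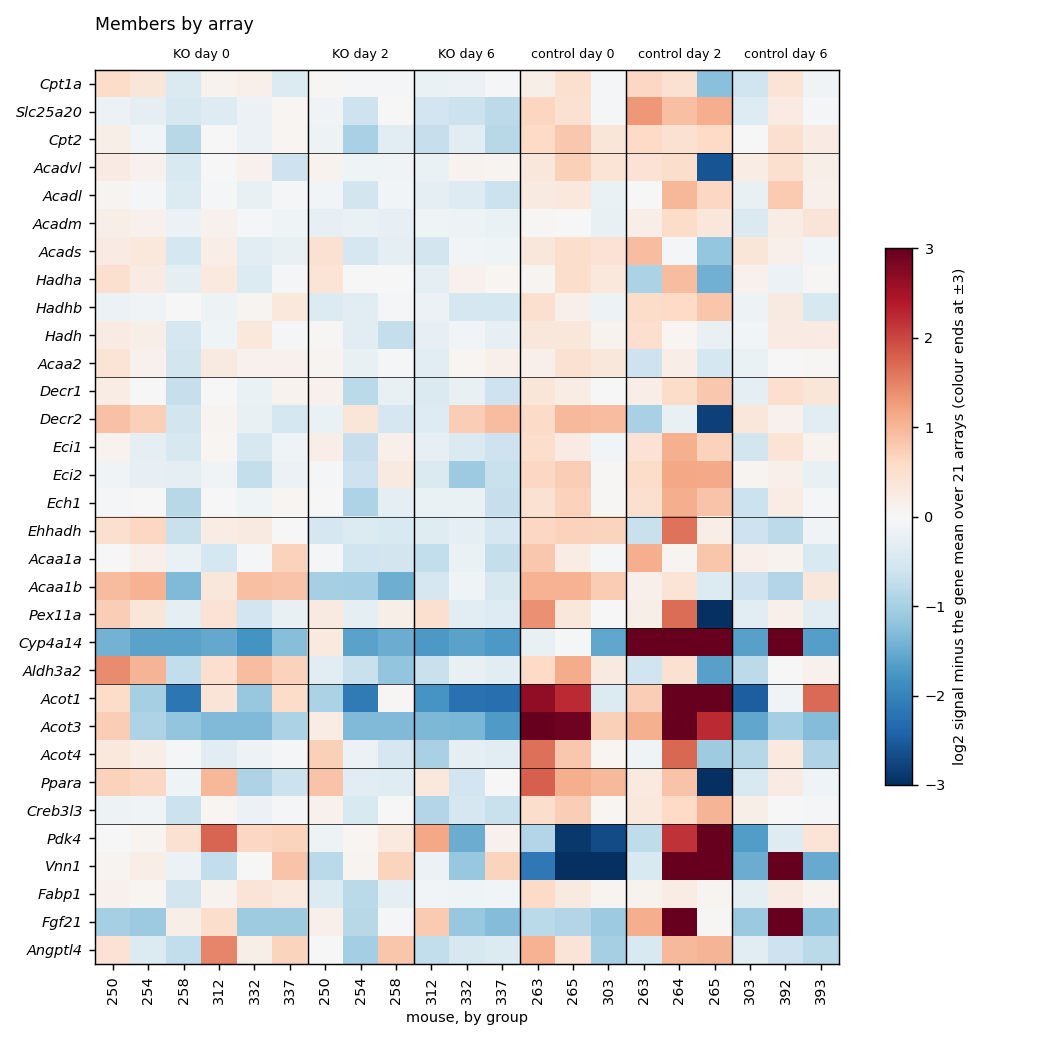
Log2 signal of the 32 members tested minus each gene's mean over 21 arrays, with members as rows by role and arrays as columns by group and mouse; colours end at 3 log2 units either way. Among the strongest colours are those of Cyp4a14, Vnn1, Fgf21, Acot1 and Acot3 in control arrays, and the column of control mouse 265 on day 2 is dark blue for Ppara and Pex11a.

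Other genes of fatty acid oxidation were looked at as a group of 27, of which 23 were tested. On day 0, 2 were lower in KO livers and 0 were higher, against 2.87% lower and 6.79% higher over all genes. On day 2, 1 was lower and 0 were higher, against 2.96% and 2.75% over all genes. The median differences were -0.40 on day 0 and -0.28 on day 2, against 0.02 and -0.03 over all genes. Acot8, a peroxisomal thioesterase, differed by -0.96 ± 0.24 (SE; limma adjusted p = 0.0142), and Pecr, a peroxisomal enoyl-CoA reductase, by -0.92 ± 0.27 (SE; limma adjusted p = 0.0385) on day 0. Acot8 missed the threshold without control mouse 263 or 265 on day 0 (0.0509 and 0.0834), and Pecr without KO mouse 250, 254 or 258 or any control mouse on day 0 (0.0541 to 0.179). Slc22a5, the plasma membrane carnitine transporter, differed by -2.08 ± 0.57 (SE; limma adjusted p = 0.0376) on day 2, lost without any KO mouse or control mouse 264 or 265 of that day (0.0544 to 0.151). It was also lost with the mean of its probe sets (-1.16, adjusted p = 0.204) and without the 3 arrays of high Gapdh difference (-2.47, adjusted p = 0.145). On day 6 limma called 0 of the 23, with 3 at an unadjusted p under 0.05. Of 7 receptor partners and coactivators 6 were tested, and Pparg, the PPAR of fat storage, was the only one called, at 2.58 ± 0.47 higher in KO livers on day 0 (SE; limma adjusted p = 0.0013). Of 3 adipocyte markers on the array only 1 was above log2 4 on any array and was tested. It was also higher in KO livers on day 0, and its part in this difference was not tested.

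PPAR alpha binds as a dimer with RXR to a direct repeat of a hexamer spaced by 1 base. The RefSeq promoter windows (GRCm38.p6, 250 bases before to 50 after each start) were searched on both strands for AGGTCANAGGTCA. Of the 34 genes 28 had a window. A member gene was counted if any of its windows held the motif, whereas the share over all windows was counted by window. With at most 1 mismatch the motif was in 1 of the 28 (3.57%) and in 0.554% of all 32851 windows, with at most 2 mismatches in 4 (14.3%) and in 3.86%, and without a mismatch in 0 and in 0.0396%. The single hexamer AGGTCA, which these motifs may contain, was in 7 of 28 (25%) and in 16.3% of all windows. The 4 genes were Fabp1, Acot4, Creb3l3 and Slc25a20, the last with the match AGGTgAAAGGTCg, in which lower case marks the mismatches, just after its start. A match describes letters and not binding, and these genes differ in their values: among them Slc25a20 was called on day 2, and Fabp1, Acot4 and Creb3l3 were not. The 250 bases before the start of the other 3 are shown because they hold these matches, with the matched stretch in capitals as it reads on the gene's strand, at chr6:71199629-71199878 (plus strand), chr12:84038129-84038378 (plus strand) and chr10:81092592-81092841 (minus strand, 1 of 2 annotated starts). The windows of Acot4 and Creb3l3 belong to starts that lie 1125 and 6281 bases inside the gene's annotated span.
Fabp1: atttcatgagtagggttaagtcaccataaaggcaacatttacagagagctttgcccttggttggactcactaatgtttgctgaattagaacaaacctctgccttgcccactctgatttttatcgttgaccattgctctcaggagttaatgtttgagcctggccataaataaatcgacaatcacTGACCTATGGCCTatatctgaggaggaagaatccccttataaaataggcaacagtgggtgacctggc
Acot4: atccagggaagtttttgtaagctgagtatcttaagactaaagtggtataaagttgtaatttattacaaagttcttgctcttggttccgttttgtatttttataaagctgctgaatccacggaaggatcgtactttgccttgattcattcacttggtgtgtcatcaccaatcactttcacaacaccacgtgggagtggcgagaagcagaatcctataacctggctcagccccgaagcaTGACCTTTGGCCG
Creb3l3: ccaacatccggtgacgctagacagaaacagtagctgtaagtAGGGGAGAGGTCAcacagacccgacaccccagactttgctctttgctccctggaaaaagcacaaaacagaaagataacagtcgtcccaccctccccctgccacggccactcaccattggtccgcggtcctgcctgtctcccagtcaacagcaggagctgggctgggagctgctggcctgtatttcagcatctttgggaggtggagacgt

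Hadha and Hadhb, the 2 subunits of the trifunctional protein, lie head to head on chromosome 5, at chr5:30119423-30154980 and chr5:30155253-30184593. They are 272 bases apart, and their upstream windows of 250 bases overlap by 228 bases. The stretch before Hadhb (chr5:30155003-30155252, plus strand) is shown because most of it lies before both genes, whose day 2 differences did not run alike, Hadhb being called lower in KO livers and Hadha having a positive difference that did not pass and that turned negative without the 3 arrays of high Gapdh difference. On the array of control mouse 265 on day 2 Hadha was at 8.38 and Hadhb at 11.98, the lowest and the highest of their groups. Whether RNA quality had a part in this gap was not tested.
Hadhb: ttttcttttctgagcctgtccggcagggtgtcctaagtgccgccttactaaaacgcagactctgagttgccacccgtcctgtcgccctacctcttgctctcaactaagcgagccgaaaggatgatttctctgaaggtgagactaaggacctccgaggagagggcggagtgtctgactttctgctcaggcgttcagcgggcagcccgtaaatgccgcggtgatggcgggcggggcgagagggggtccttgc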

How the data were processed

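Log2 signals of 22690 probe sets on 21 Affymetrix arrays were used as deposited by the authors, who processed them with GCRMA per the submitters' processing notes; no version of it is stated there. RNA was extracted with Trizol and labelled by a 3′ protocol, per the labels' protocols. After removal of 64 control probe sets, the platform annotation paired 20380 probe sets with a single symbol, 691 with more than 1 symbol and 1555 with none. Through Entrez identifiers 20351 probe sets matched RefSeq.

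For each gene the probe set with the highest mean was kept (12393 genes), and 7320 genes above log2 4 on at least 3 arrays were tested. Because GCRMA pulls dim probe sets towards a common floor, differences that end under log2 4 are compressed. A model of 6 groups (15 residual degrees of freedom) was fitted with limma 3.58.1 in R 4.3.3, with Benjamini-Hochberg adjustment over all genes tested and a threshold of 0.05. Contrasts compared KO with control on each day, later days with day 0 in each genotype, and the 2 responses. The procedure was tested on simulated data in which each gene had the same SD in all groups. That test does not cover spread that differs between groups. Per-array values are named for members past the threshold, up to 3 per comparison by size of change; Fgf21, single values of outlying arrays and the non-overlapping members were chosen after the values were seen. The members and gene lists were chosen with earlier results of these data known.

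Other settings tried were a test of every gene without the filter, a stricter filter (log2 6), averaging over probe sets of the same gene, quantile normalization, median centring, eBayes with trend and robust settings, only the groups compared, the mouse as a replicate block, and the omission of each array or of the 3 arrays of high Gapdh difference. The mouse number in the labels pairs 9 day 0 samples with later ones of the same animal, as the design text states. Deviations from the group means correlated at -0.06 to 0.30 within these pairs (median 0.12), and at a median of -0.01 between different mice and groups. No scan date or batch label was used. No 2 arrays held identical values.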

Additional observations from a re-analysis of the deposited data

Results flagged for a closer look

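KO livers on day 0, with 6 arrays, were the only group large enough for a test of outlying samples by Dixon's criterion. Of 33 genes, the 32 tested members and Abcb4, 9 had an array standing apart from the other 5. Chance flags about 1 in 20 groups. The array of mouse 258 was the low one in 6 genes: Acaa1b (12.13), Acaa2 (11.38), Cpt2 (9.18), Creb3l3 (9.66), Ech1 (10.3) and Fabp1 (14.42), all log2 signals. Eci2 was low in mouse 332 (10.25). Acot3 was high in mouse 250 (5.26), and Pdk4 was high in mouse 312 (8.41). The 33 genes share the same 6 arrays, so these flags are not independent of each other.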

How the results depend on the processing

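No alternative turned the sign of a member's called difference. Among day 2 differences that did not pass, the sign turned without the 3 arrays of high Gapdh difference for Hadha (-0.79), Acadvl (-0.56), Cpt1a (-0.46), Ppara (-0.81), Acaa2 (-0.25) and Pex11a (-1.63). It also turned with the mean of probe sets for Cpt1a (-0.57) and Pex11a (-0.34), and for Cpt1a with median centring (-0.062). With single arrays left out, Acadvl ranged from -0.52 to 1.04, Acads from -0.54 to 0.50, Acot4 from -0.78 to 0.61, Cpt1a from -0.55 to 0.40, Pex11a from -0.88 to 1.69, Aldh3a2 from -0.66 to 0.39 and Ppara from -0.53 to 2.48. The 4 members called between KO and control livers on day 0 became 2 with no filter and 7 without the 3 arrays of high Gapdh difference (2 higher, 5 lower), and 1 to 7 when single arrays were left out. The 8 on day 2 became 0 in a fit of the day 2 arrays alone, 12 with median centring, and 2 to 11 with single arrays left out. Leaving out the 3 arrays leaves mouse 264 as the only control liver of day 2. All of these 8 calls but that of Cyp4a14 were then lost, as given above by gene. The 0 on day 6 became 0 to 1 with single arrays left out. Between day 2 and day 0, the 0 in KO livers became 0 to 1. The 5 in control livers became 0 in a fit of the 2 groups alone and 3 without the 3 arrays, and 1 to 12 with single arrays left out. Between day 6 and day 0, the 1 in control livers became 0 in a fit of the 2 groups alone and 2 without the 3 arrays (Acot3 and Ehhadh), and 0 to 2. The 0 of the day 2 interaction became 1 in a fit of its 4 groups alone (Cyp4a14), and 0 to 2. Day 6 against day 0 in KO livers and the day 6 interaction gave 0 members under each alternative. A fit of few arrays has fewer residual degrees of freedom; the other causes were not tested.

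The replicate block by mouse (consensus correlation 0.108) changed no member call: it gave 4, 8 and 0 members on days 0, 2 and 6, and 5 in control livers on day 2. Median centring lowered the median difference of all genes to -0.12, -0.15 and -0.21 on days 0, 2 and 6, against 0.02, -0.03 and -0.03 as deposited; the members' medians were then -0.59, -0.91 and -0.42. Over all genes, calls on day 2 numbered 418, and 18 in a fit of that day alone or 32 without the 3 arrays; on day 6 they numbered 127, and 38 in a fit of that day alone. For control livers they numbered 696 on day 2, against 27 and 72, and 209 on day 6, against 19 in a fit of the 2 groups alone. KO livers on day 6 had 10, and 6 with no filter or without the 3 arrays, and the day 6 interaction 12, and 5 with a filter at log2 6. The day 2 interaction had 0, and up to 10. Signals under log2 4 set the limit for Cyp4a14, Acot3 and Fgf21.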
